A study of Mus musculus with 10 samples.

Results

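The HoxA genes *Hoxa3*, *Hoxa4*, *Hoxa5*, *Hoxa6*, *Hoxa7*, *Hoxa9* and *Hoxa10* and their cofactor gene *Meis1* were compared between unsorted marrow cell cultures kept without Notch ligand and early T cell precursors grown on it. These 8 genes were chosen by name, out of 24062 gene rows, and all 8 were listed in every library's file. *Meis1* RNA was high in DN1 cells and low in DN2a cells, in DN2b cells and in the no Notch control. *Hoxa9* RNA was present in the control and in DN1 cells, and was at or near the detection floor in DN2a and DN2b cells.

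Lin-SCA1+KIT+ (LSK) progenitors from the bone marrow of C57BL/6J mice, with no engineered allele named for any group, were cultured in dishes coated with the Notch ligand Delta1 (Delta1 ext-IgG, 5 µg/mL) or with human IgG, and RNA was sequenced from 10 populations. DN1 cells (KIT++CD44+CD25-, 2 libraries) were sorted from ligand cultures without IL-7, and DN2a (KIT++CD44+CD25+, 2 libraries) and DN2b cells (KIT+CD44lo CD25+, 2 libraries) from ligand cultures given 100 ng/mL IL-7. The no Notch control (4 libraries, D1, D2, R1 and R2) was LSK cells kept on IgG and harvested at day 14, with no sort named in the sources used here. The labels date the DN libraries to 2 years, by which they are numbered below (replicate 1 the earlier, replicate 2 the later), and within a year DN2a and DN2b carry the same date.

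Between DN1 and the DN2 stages, stage, IL-7 and any difference in culture time cannot be told apart. Per the study's methods, IL-7 was added at day 14, and for its accessibility data the DN stages were harvested in sequence. The control differs from the DN cells in ligand, sorting and cell types at once. Since it was harvested at day 14, it differs from the DN2 cells in culture time as well. Between 12354635 and 35367925 reads were counted on genes per library. Expression is given as CPM, counts scaled to library size with TMM factors, in which 3 counts, taken as the detection floor, equal 0.0881 to 0.239 CPM. *Il2ra*, which encodes the CD25 that separates DN1 from DN2 in the sort, measured 23.2 and 18.9 CPM in DN1 replicates 1 and 2 and between 1171 and 2177 CPM in the DN2 libraries. *Cd44* had means of 138, 49.3 and 12.2 CPM and *Kit* of 343, 193 and 153 CPM in DN1, DN2a and DN2b. The study's methods describe DN1 and DN2a by the same KIT and CD44 notation. Summed CPM of 8 neutrophil marker genes ran from 21085 to 72007 in the control, from 78.8 to 2494 in DN1 and from 1.54 to 20.9 in DN2a and DN2b, with no marker of the list at the floor in every library. For 6 macrophage markers the ranges were 1495 to 6449, 31.8 to 36.2 and 9.24 to 44.4 CPM. These markers move with every comparison with the control below, and the part of such cells in those results was not tested. In bulk RNA, fewer cells that express a gene and less RNA per cell cannot be told apart.

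Hox genes encode homeodomain transcription factors and lie in 4 clusters, A to D, in the mouse. In blood formation the HoxA genes, *Hoxa9* above all, are expressed in stem cells and early progenitors and decline as cells mature, and MEIS1 is a homeodomain protein of the TALE class that binds DNA together with HOX and PBX proteins. *Hoxa9* and *Meis1* are best known together, as genes that transform myeloid progenitors when both are overexpressed and that stay active in leukemias with MLL rearrangements.

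The HoxA members lie on the minus strand of chromosome 6 in mm10, in the order of their numbers, from *Hoxa3* (GENCODE vM21 gene model, chr6:52169062-52213336) to *Hoxa10* (chr6:52231197-52240854), and *Meis1* spans chr11:18879817-19018985, also on the minus strand. Since the study compared CpG content among promoter groups, the DNA just upstream of the RefSeq start sites was read (GRCm38.p6, 250 bases per start). The study's ratios were taken over longer promoter sequences, so the ratios below are not on the same measure. RefSeq starts were matched for 7 of the 8 genes, in 8 windows. The upstream DNA of *Hoxa9* (chr6:52227371-52227620), *Hoxa10* (the start with more CpG, chr6:52234940-52235189) and *Meis1* (chr11:19018986-19019219, without 16 bases annotated as exon) is shown because these genes carry the calls below, 5′ to 3′ on the minus strand, with CpG dinucleotides in capitals.
Hoxa9: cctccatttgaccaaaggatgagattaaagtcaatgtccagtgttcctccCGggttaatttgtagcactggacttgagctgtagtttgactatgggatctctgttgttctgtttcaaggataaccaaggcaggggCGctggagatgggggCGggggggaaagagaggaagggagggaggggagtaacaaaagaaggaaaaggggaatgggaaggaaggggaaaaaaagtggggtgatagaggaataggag
Hoxa10: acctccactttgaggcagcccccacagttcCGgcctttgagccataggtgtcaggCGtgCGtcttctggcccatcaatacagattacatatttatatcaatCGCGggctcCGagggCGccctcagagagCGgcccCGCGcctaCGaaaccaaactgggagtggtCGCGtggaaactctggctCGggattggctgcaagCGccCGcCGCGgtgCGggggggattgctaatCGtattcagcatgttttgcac
Meis1: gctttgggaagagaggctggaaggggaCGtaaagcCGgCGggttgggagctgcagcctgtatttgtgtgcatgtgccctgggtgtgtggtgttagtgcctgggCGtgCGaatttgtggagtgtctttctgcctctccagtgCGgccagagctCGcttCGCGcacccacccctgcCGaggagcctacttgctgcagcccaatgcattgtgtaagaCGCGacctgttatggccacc

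These windows differed in CpG content. The observed over expected CpG ratio was 0.266 for *Hoxa9*, with 3 CpG in 250 bases, 0.913 for the *Hoxa10* window shown and 0.595 for the whole *Meis1* window, against a median of 0.374 and quartiles of 0.167 and 0.723 over 32841 windows. The other windows had ratios of 0.687 (*Hoxa3*), 1.11 (*Hoxa5*), 0.933 (*Hoxa6*), 0.386 (*Hoxa7*) and 0.458 (the other *Hoxa10* start). All 250 bases of the *Hoxa3* window are annotated as exon, as are 78 of the *Hoxa7* window and 50 of the *Hoxa6* window. The letters TGGGAA, the core bound by the Notch effector RBPJ, occurred on either strand in the windows of *Hoxa6*, *Hoxa9* and *Meis1* and in 21.6% of all windows. The letters TGACAG, bound by MEIS proteins, occurred in the *Hoxa3* window and in 15.9% of all windows. The HOX-PBX letters TGATTNAT occurred in no member window and in 2.83% of all windows. A match is a description of these letters only.

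*Meis1* had the level that set DN1 apart. It measured 43.8 CPM in DN1 replicate 1 and 23.8 CPM in DN1 replicate 2, against 3.98, 3.18, 3.41 and 3.48 CPM in control libraries D1, D2, R1 and R2. It measured 2.51 and 4.01 CPM in DN2a replicates 1 and 2, and 3.40 and 8.04 CPM in DN2b replicates 1 and 2. Each DN1 library was above each of the other 8 libraries, and the control libraries overlapped those of DN2a and DN2b.

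*Hoxa9* divided the libraries differently. It measured 5.38, 21.2, 12.2 and 25.9 CPM in the control (D1, D2, R1, R2) and 3.005 and 15.1 CPM in DN1 replicates 1 and 2. DN2a held 0 counts in replicate 1 and 2 counts in replicate 2 (0.149 CPM), and DN2b held 0 counts in replicate 1 and 6 counts in replicate 2 (0.478 CPM). Control and DN1 ranges overlapped, and all 4 DN2 libraries lay below both. The spread within the control was wide, with a mean of 16.2 ± 9.19 CPM (SD, n = 4), as was that in DN1, at 9.06 ± 8.56 CPM (SD, n = 2).

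*Hoxa7*, its neighbour, kept counts in replicate 2 of both DN2 stages. It measured 2.91, 5.49, 4.93 and 6.04 CPM in the control, 2.26 and 16.9 CPM in DN1 replicates 1 and 2, 0.143 and 3.56 CPM in DN2a, and 0.0667 and 1.59 CPM in DN2b. Replicate 2 was the higher one in each DN stage, and DN2a overlapped the control while DN2b did not. The antisense RNA Hoxaas3 shares 586 exon bases with *Hoxa7*, and since the strand setting of the counting is not given in the sources used here, their reads cannot be told apart. *Hoxaas3*, listed under the symbol *2700086A05Rik*, had at most 7 counts in a library.

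*Hoxa10*, the last of the members along the cluster, was highest in control library D2. It measured 0.224, 6.37, 0.587 and 1.92 CPM in D1, D2, R1 and R2, and 0.111 and 0.299 CPM in DN1. DN2a had 5 counts in replicate 1 and 0 in replicate 2, and DN2b had 0 and 1. The DN2 libraries were thus near the floor, and DN1 overlapped the lowest control library.

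*Hoxa5* measured 0.560, 0.923, 1.35 and 2.44 CPM in the control, 0.631 and 3.89 CPM in DN1, 0.0358 and 0.297 CPM in DN2a, and 0.0667 and 0.558 CPM in DN2b. Every DN2 library lay below every control and DN1 library, the highest by a narrow margin. *Hoxa3* measured 0.112, 0.415, 0.323 and 0.519 CPM in the control, 0.927 and 0.997 CPM in DN1, 0.0358 and 0.149 CPM in DN2a, and 0.0667 and 0.717 CPM in DN2b. The DN1 libraries were the highest, at no more than 25 counts each, and *Hoxa3* shares 297 exon bases with Hoxaas3.

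*Hoxa4* measured 0.336 to 0.830 CPM in the control, 0.371 and 0.698 CPM in DN1, 0.0716 and 0.149 CPM in DN2a, and 0.0667 and 0.478 CPM in DN2b, with at most 27 counts in a library. *Hoxa6* was at or under 3 counts in 9 of 10 libraries and at 0 in all 4 DN2 libraries. For both genes each DN2a library lay below each control library, at counts too low for the filter of the test.

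**Figure D1:**
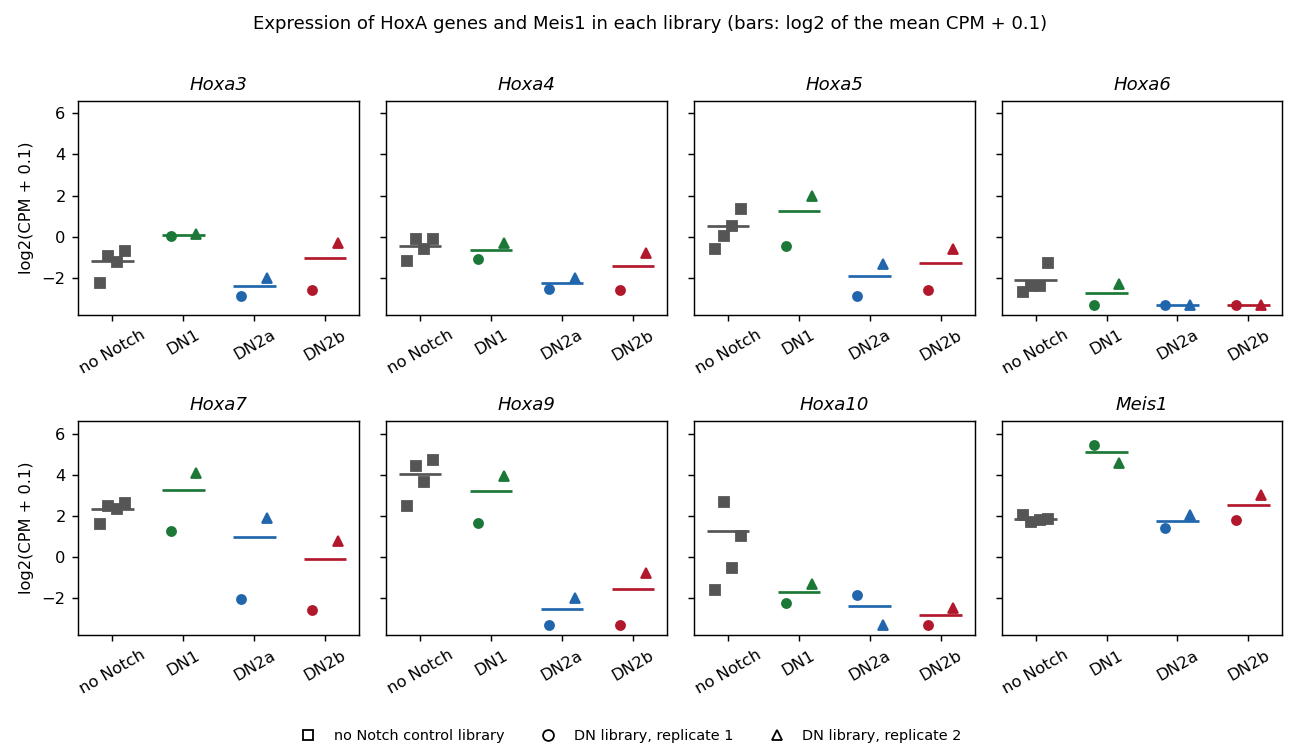
Each panel plots 1 gene, with log2(CPM + 0.1) on the y axis and the 4 groups on the x axis; each point is a library (squares, control; circles, DN replicate 1; triangles, DN replicate 2) and each bar is the log2 of the mean CPM + 0.1. *Meis1* stands highest in DN1, at 43.8 and 23.8 CPM, and *Hoxa9* drops to at most 0.478 CPM in DN2a and DN2b.

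Per kilobase of exon, which allows genes to be set beside each other, *Hoxa9* had the highest mean level of the 8 in the control (2.90 CPM per kb ± 1.65, SD, n = 4), followed by *Hoxa7* (1.68 ± 0.475) and *Hoxa5* (0.703 ± 0.434), with *Meis1* sixth (0.333 ± 0.0318). In DN1 the order of means was *Hoxa7* (3.33 ± 3.599, SD, n = 2), *Meis1* (3.21 ± 1.34), *Hoxa9* (1.62 ± 1.53) and *Hoxa5* (1.20 ± 1.23). The ranges of neighbours in these orders overlapped. In DN2a *Hoxa7* (0.645 ± 0.841) and *Meis1* (0.309 ± 0.101) came first and *Hoxa9* was next to last, and in DN2b *Meis1* (0.544 ± 0.312) came first, above *Hoxa7* (0.289 ± 0.375). The range of *Meis1* lay wholly above that of the gene ranked after it in DN2a only.

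**Figure D2:**
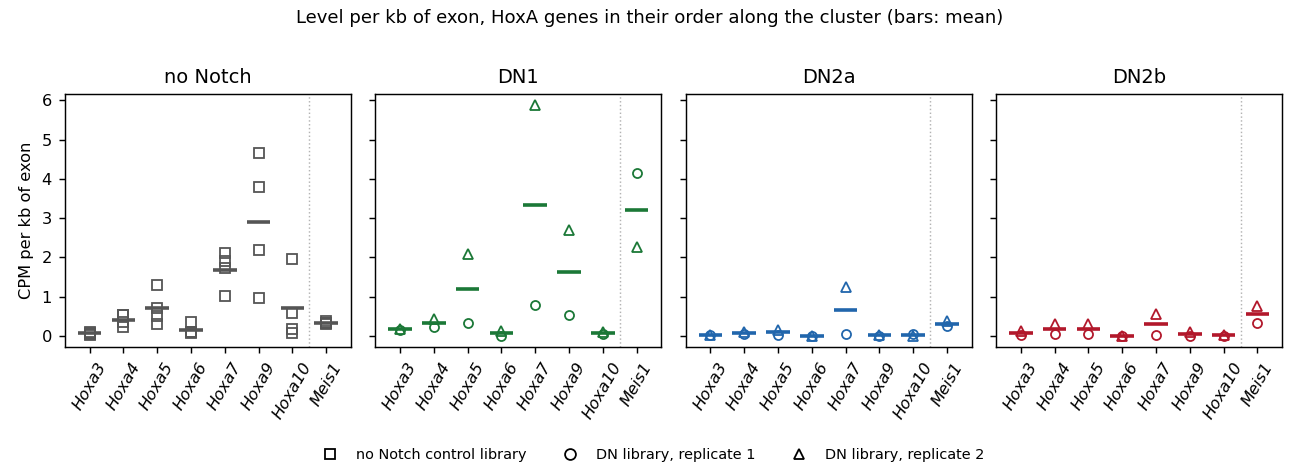
The y axis gives CPM per kb of exon (linear scale) and the x axis the HoxA genes in their order along the cluster, then *Meis1*, with 1 panel per group; points are libraries (squares, control; circles, DN replicate 1; triangles, DN replicate 2) and bars are means. The highest mean is *Hoxa9* in the control (2.90) and *Hoxa7* in DN1 (3.33), and no HoxA mean in DN2a or DN2b exceeds 0.645.

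The split between *Hoxa7* and *Hoxa9* can be read within each library, where scaling does not enter. *Hoxa9* made up 64.9%, 79.4%, 71.2% and 81.1% of the counts of both genes in control libraries D1, D2, R1 and R2. It made up 57.0% and 47.2% in DN1 replicates 1 and 2, out of 142 and 642 counts. In DN2a replicate 2 it made up 4.0% of 50 counts (exact 95% binomial interval 0.488% to 13.7%) and in DN2b replicate 2 23.1% of 26 counts (8.97% to 43.6%). Replicate 1 of DN2a and of DN2b had only 4 and 1 counts of the pair, none of them from *Hoxa9*, and set no share. The share was thus lower in both DN1 libraries than in every control library, and lower again in the DN2 libraries that could show one. The intervals of DN1 replicate 1 (48.5% to 65.3%) and control library D1 (56.6% to 72.5%) overlapped, as did those of DN1 replicate 2 (43.3% to 51.1%) and DN2b replicate 2. This ratio was picked after the values were seen and is a description without a test, and its intervals cover counting error only.

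**Figure D3:**
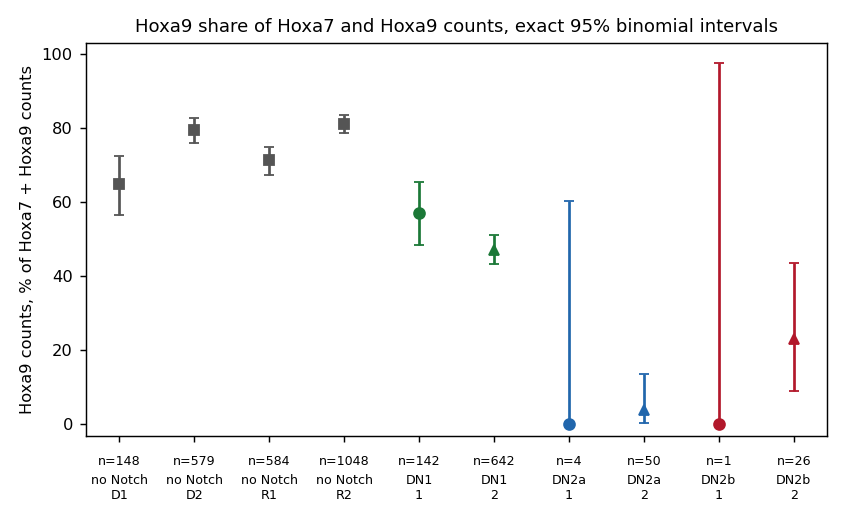
The y axis gives *Hoxa9* counts as a percent of *Hoxa7* plus *Hoxa9* counts in each of the 10 libraries on the x axis, with n the counts of the pair and bars the exact 95% binomial intervals. Shares run from 64.9% to 81.1% in the control and are 57.0% and 47.2% in DN1, while replicate 1 of DN2a and DN2b, with 4 and 1 counts, have intervals that reach 60.2% and 97.5%.

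The first comparison asked what distinguishes DN1 cells, which low Notch doses suffice to form, from cells without Notch ligand. *Meis1* rose, with a log2FC of 3.26 (SE 0.40, adjusted p = 8.45e-04). All adjusted p-values are those of edgeR's quasi-likelihood fit, corrected over the 12221 genes that passed a filter on low counts. It was the 1 member called among 6 that could be tested, where 14.3% of all genes tested were called higher and 17.0% lower. *Hoxa4* and *Hoxa6* missed that filter, which asks for 1 CPM in 2 libraries before TMM scaling. *Hoxa3* passed it only through the DN1 libraries (1.10 and 1.08 CPM before TMM scaling) and *Hoxa10* only through control libraries D2 and R2 (5.46 and 2.12 CPM). Counts and medians over the tested members, in this and each later comparison, thus describe these 6 genes and support nothing. The other log2FC values were 1.46 (SE 0.92) for *Hoxa3*, 0.76 (SE 1.01) for *Hoxa5*, 0.98 (SE 1.16) for *Hoxa7*, -0.84 (SE 0.98) for *Hoxa9* and -3.46 (SE 1.57, adjusted p = 0.121) for *Hoxa10*. The members had a median log2FC of 0.87 and all genes one of 0.01. *Hoxa3* and *Meis1* were the 2 of 6 tested members with both DN1 libraries above the control, beside 23.5% of all genes. *Meis1* was called in each of 6 fits with 1 library left out and in each of 7 other settings. The signs for *Hoxa5* and *Hoxa7* rest on DN1 replicate 2, since without it they were -1.06 and -1.09. The DN1 library with more *Meis1*, replicate 1, also had more mast cell and basophil markers (6 genes, none at the floor in every library, 1596 CPM summed, against 461 CPM in replicate 2 and 71.1 to 240 CPM in the control) and more erythroid markers (6 genes, 177 CPM summed, at most 9.04 CPM elsewhere, with the globin genes *Hbb-b1* and *Hba-a1* at the floor in every library). Its sum of 6 megakaryocyte markers was higher as well (394 against 131 CPM), with 274 to 1119 CPM in the control. Of these DN1 sums *Itga2b* made 332 and 121 CPM, and 1 of the 6 was called higher and 2 lower. *Cpa3* made 987 and 333 CPM of the mast cell and basophil sums, and 4 of those 6 were called higher. *Mcpt8* and *Hdc* had means of 14.1 and 14.7 CPM in DN1 and 32.3 and 40.4 CPM in the control. Neutrophil markers summed to 2494 and 78.8 CPM in DN1 replicates 1 and 2, and 7 stem and progenitor markers to 858 and 1658 CPM. The sum of 6 stromal markers, none at the floor in every library, was 105 and 181 CPM in DN1 replicates 1 and 2 and 1.34 to 4.58 CPM in the control, and 1 of the 4 tested was called higher. Most of it was 1 gene, *Pdgfrb*, with 104.7 and 152.5 CPM in DN1 replicates 1 and 2. *Col3a1*, *Pdgfra* and *Dcn* had 0 CPM in 1 of the DN1 libraries. The part of such cells in the *Meis1* level was not tested.

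The next comparisons set the DN2 stages, which form on high ligand density, against the control. In DN2a *Hoxa9* fell by 8.09 on the log2 scale (SE 1.64, adjusted p = 0.00423), which is at least 98.0-fold lower when DN2a is placed at 3 counts per library. That bound was 78.4-fold without control library R2 and 120-fold without control library D1. *Hoxa9* was 1 of 6 tested members called, where 21.2% of all genes were called higher and 24.3% lower. *Hoxa3* (-2.01, SE 1.20), *Hoxa5* (-3.11, SE 1.32, adjusted p = 0.0810), *Hoxa7* (-1.42, SE 1.30) and *Hoxa10* (-4.37, SE 1.68, adjusted p = 0.0589) did not pass. *Meis1* had a log2FC of -0.12 (SE 0.43). The median over the members was -2.56, or -2.27 with *Hoxa3* and *Hoxa9* at their bounds, and -0.05 over all genes. For 3 of 6 tested members (*Hoxa5*, *Hoxa9* and *Hoxa10*) each DN2a library was below each control library, as for 32.5% of all genes. The *Hoxa9* call held in each of 6 fits with 1 library left out and in 7 other settings. Its log2FC was -6.71 without DN2a replicate 1 and -11.55 without DN2a replicate 2, where the remaining library had 0 counts and the value depends on the prior count. DESeq2 called *Hoxa5* and *Hoxa10* as well.

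In DN2b *Hoxa9* fell by 6.12 on the log2 scale (SE 1.43, adjusted p = 0.00865) and *Hoxa10* fell by 5.73 (SE 1.99, adjusted p = 0.0426), the latter at least 10.4-fold lower with DN2b at 3 counts per library, and at least 4.15-fold lower with control library D2 left out. *Hoxa10* was tested only because of its level in 2 of the control libraries, so its call is a description and supports nothing. These calls were 2 of 6 tested members, where 19.9% of all genes were called higher and 22.5% lower. *Hoxa3* (0.15, SE 1.01), *Hoxa5* (-2.10, SE 1.23), *Hoxa7* (-2.56, SE 1.41) and *Meis1* (0.70, SE 0.41, adjusted p = 0.195) did not pass. The median over the members was -2.33 and that over all genes -0.05. For 4 of 6 tested members (*Hoxa5*, *Hoxa7*, *Hoxa9* and *Hoxa10*) each DN2b library was below each control library, as for 30.8% of all genes. The *Hoxa9* call was lost without DN2b replicate 1, with an adjusted p of 0.0548 at a log2FC of -5.06. Without DN2b replicate 2, which leaves a library with 0 counts, the log2FC was -11.56 (adjusted p = 0.0164). That of *Hoxa7* was -1.60 without replicate 1 and -6.07 without replicate 2, and was called in neither fit. The *Hoxa10* call was lost without DN2b replicate 1 (log2FC -4.74, adjusted p = 0.202), without DN2b replicate 2 (-8.73, 0.103) and in a fit of these 2 groups alone (0.0560). Without control library D2 or R2 the gene missed the filter and could not be tested.

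The remaining comparisons followed the DN stages among themselves. From DN1 to DN2a *Meis1* fell by 3.38 on the log2 scale (SE 0.53, adjusted p = 0.0459). It was 1 of 6 tested members called, where 0.196% of all genes were called higher and 0.205% lower. *Hoxa9* had the largest difference of the 6, with a log2FC of -7.25 (SE 1.65), at least 54.8-fold lower in DN2a, yet an adjusted p of 0.135. That bound was 18.2-fold without DN1 replicate 2 and 91.5-fold without DN1 replicate 1. *Hoxa3* (-3.47, SE 1.31), *Hoxa5* (-3.87, SE 1.43), *Hoxa7* (-2.40, SE 1.46) and *Hoxa10* (-0.91, SE 1.74) did not pass either. The median over the members was -3.42, or -2.96 with *Hoxa3* and *Hoxa9* at their bounds, beside -0.03 over all genes. For 4 of 6 tested members (*Hoxa3*, *Hoxa5*, *Hoxa9* and *Meis1*) each DN2a library was below each DN1 library, as for 22.4% of all genes. The *Meis1* call held in 1 of 4 fits with 1 library left out. It was lost without DN1 replicate 1 (adjusted p = 0.203), DN2a replicate 1 (0.436) or DN2a replicate 2 (0.264), with log2FC values from -3.75 to -2.87, while DESeq2 called *Meis1* (adjusted p = 1.87e-07) and *Hoxa9* (8.21e-05). The call was also lost with only these groups fitted (0.0626) and with the DN libraries only (0.106), a setting added after the data were seen. Of the 6 mast cell and basophil markers none was called in DN2a over DN1 (median log2FC -5.09) and 2 were lower in DN2b over DN1 (median -4.72). *Fcer1a*, a subunit of the IgE receptor, had means of 165 CPM in DN1, 1.40 CPM in DN2a and 0.140 CPM in DN2b. *Gata2*, a transcription factor of progenitors and mast cells, had means of 91.7, 2.81 and 3.32 CPM in the same stages. The sum of the 6 was 382 and 582 CPM in DN2a, which overlapped DN1, and 261 and 462 CPM in DN2b. Nearly all of it was *Cpa3*, with 371 and 571 CPM in DN2a and 257 and 454 CPM in DN2b. Of 8 neutrophil markers 1 was lower in DN2a over DN1 (median -9.90) and 4 were lower in DN2b over DN1 (median -11.60). Of 2 tested dendritic cell markers 1 was lower in DN2b over DN1, and 6 megakaryocyte markers, none of which passed, had median log2FC values of -3.60 and -4.22. The part of such cells in the *Meis1* difference was not tested.

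From DN1 to DN2b *Meis1* fell by 2.56 on the log2 scale (SE 0.51, adjusted p = 0.0400), again as 1 of 6 tested members, where 1.01% of all genes were called higher and 0.892% lower. *Hoxa9* had a log2FC of -5.28 (SE 1.44, adjusted p = 0.122) and *Hoxa7* one of -3.54 (SE 1.56). *Hoxa5* (-2.86, SE 1.35), *Hoxa10* (-2.27, SE 2.14) and *Hoxa3* (-1.31, SE 1.15) were lower in DN2b without passing the test. The median over the members was -2.71 and that over all genes -0.02. For all 6 tested members each DN2b library was below each DN1 library, as for 22.1% of all genes. The *Meis1* call was lost without DN1 replicate 1 (adjusted p = 0.261), DN2b replicate 1 (0.238) or DN2b replicate 2 (0.0709), with only these groups fitted (0.171) and with the DN libraries only (0.0876), and DESeq2 called *Meis1* (1.68e-04) and *Hoxa9* (0.00112). The comparisons with DN1 share the DN1 libraries and those with the control share the control libraries, so their values for a gene are not independent.

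Between DN2b and DN2a no member was called by edgeR's quasi-likelihood test, also at an unadjusted p under 0.05, nor by DESeq2. Of all genes, 0.0% were called higher and 0.0% lower, with 335 at an unadjusted p under 0.05 and 29 called by DESeq2. The *Meis1* log2FC was 0.82 (SE 0.49), and the HoxA members ranged from -1.36 (SE 2.22, *Hoxa10*) to 2.16 (SE 1.33, *Hoxa3*). The groups overlapped for every tested member, where 14.6% of all genes were higher and 15.8% lower in each DN2b library than in each DN2a library. The HoxA members other than *Hoxa7* had 0 to 9 counts per library in these stages.

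**Figure D4:**
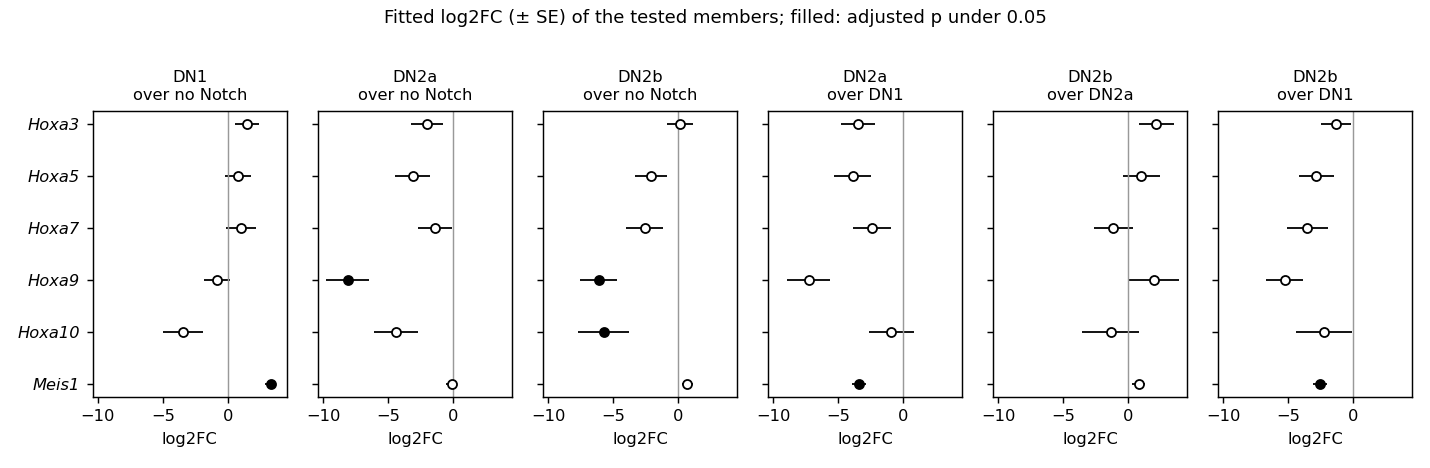
The x axis gives the fitted log2FC with its SE for the 6 tested members on the y axis, with 1 panel per comparison; filled points have an adjusted p under 0.05. The filled points are *Meis1* over the control in DN1 (3.26) and in DN2a and DN2b over DN1 (-3.38 and -2.56), *Hoxa9* in DN2a and DN2b over the control (-8.09 and -6.12) and *Hoxa10* in DN2b over the control (-5.73).

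Other Hox genes were then counted. Of 13 further genes of the HoxA locus found in the files, 4 could be tested. *Skap2*, an adaptor gene beside the cluster, was lower in DN2a and DN2b than in the control (log2FC -2.65, SE 0.30, and -3.22, SE 0.31), with 172 to 289 CPM in the control, 28.9 and 41.1 CPM in DN2a and 24.0 and 23.3 CPM in DN2b. Of 10 HoxB genes 4 could be tested, and *Hoxb2*, *Hoxb3* and *Hoxb5* were called lower in DN2a than in the control (at least 26.2-fold, 19.7-fold and 18.1-fold, edgeR's quasi-likelihood test, adjusted p = 0.0206, 0.0163 and 0.0474), *Hoxb2* also in DN1 (at least 33.2-fold, 0.0314), and none in DN2b or between DN stages by that test. Of all genes, 24.3% were called lower in DN2a and 17.0% in DN1. *Hoxb2* reached 1 CPM before TMM scaling in 3 control libraries and no DN library, and *Hoxb3* and *Hoxb5* in 3 and 2 control libraries and 1 DN2b library, so these calls too are descriptions and support nothing. *Hoxb4*, known for expanding stem cells when overexpressed, had means of 5.54, 3.12, 2.18 and 2.19 CPM in the control, DN1, DN2a and DN2b and was not called. None of 9 HoxC and 9 HoxD genes reached the filter, and the summed level of either family was at most 0.784 CPM in any library.

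The TALE class, which holds the DNA-binding partners of HOX proteins, split by gene. In DN1 over the control 2 of 9 tested genes were higher, *Pbx4* (log2FC 3.20, SE 0.65, adjusted p = 0.00686) and *Tgif2* (2.33, SE 0.45, 0.0055), and *Pbx2* was lower (-0.53, SE 0.18, 0.0482), beside 14.3% of all genes higher and 17.0% lower. With library size alone as the scale, the median of all genes in this comparison moved by 0.26, a shift to be read beside the value for *Pbx2*. In DN2a over the control 2 of the 9 were higher and 2 lower, where 21.2% and 24.3% of all genes were, and in DN2b *Pbx4* was higher and *Pbx2* lower, where 19.9% and 22.5% were.

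The replicate 2 library of DN2b had more of several genes than replicate 1. It also had the largest share of reads outside genes (10.01%, against 2.83% to 6.43% in the other libraries) and of multi-mapped reads (30.1%, against 16.4% to 25.7%), and the fewest reads counted on genes. Its *Meis1* (8.04 against 3.40 CPM), *Hoxa3* (0.717 against 0.0667 CPM) and *Meis2* (3.11 against 0.133 CPM) were higher, as were *Hoxb5* (1.59 against 0 CPM) and *Mecom* (9.64 against 0 CPM). Its endothelial marker sum was 71.8 CPM against 0.734 CPM, with *Cdh5* at 13.5 against 0.133 CPM and 1 of 4 markers (*Emcn*) at the floor in every library, and its stromal marker sum was 132 against 44.9 CPM. Across groups the endothelial sum was 6.58 to 18.7 CPM in the control, 3.34 and 21.9 CPM in DN1 replicates 1 and 2, and 2.22 and 5.42 CPM in DN2a, and the stromal sum was 49.4 and 57.9 CPM in DN2a. Of the stromal sum, *Pdgfrb* made 42.5 and 53.8 CPM in DN2a and 44.4 and 48.3 CPM in DN2b replicates 1 and 2. DN1 replicate 2, with the higher endothelial sum of its stage, also had more *Meis2* (3.89 against 0.0371 CPM) and *Mecom* (2.14 against 0 CPM) than replicate 1, and less *Meis1*. The part of such cells, or of the read shares, in the HoxA and *Meis1* values was not tested. Without DN2b replicate 2 the *Meis1* log2FC of DN2b over the control was -0.037.

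Of 14 genes usually placed downstream of or beside *Hoxa9* and *Meis1* in progenitors and leukemia, 13 were tested. In DN1 over the control 7 were higher and none lower (14.3% and 17.0% of all genes), with a median log2FC of 1.71 over the list and 0.01 over all genes. The 4 with the smallest adjusted p were *Sox4* (3.79, SE 0.25), *Cd34* (3.18, SE 0.45), *Hmgb3* (2.09, SE 0.32) and *Msi2* (2.27, SE 0.36). *Flt3*, the receptor for FLT3 ligand and a gene often linked to HOXA9 and MEIS1, measured 20.2 and 90.1 CPM in DN1, 4.26 to 7.47 CPM in the control, and at most 4.78 CPM in the DN2 libraries. In DN2a and DN2b over DN1, *Flt3* (-5.60, SE 0.89, and -4.19, SE 0.82) and *Lmo2*, a progenitor transcription cofactor (-4.02, SE 0.67, and -4.52, SE 0.69), were the 2 genes called, both lower, where 0.205% and 0.892% of all genes were. *Sox4*, *Msi2*, *Hmgb3* and *Erg* were higher than in the control in DN2a and DN2b too, and *Myb* and *Trib2* in DN2b. *Hlf*, a stem cell transcription factor, and *Lmo2* were lower in both stages and *Flt3* in DN2a. These calls were 4 higher and 3 lower of 13 in DN2a, where 21.2% and 24.3% of all genes were called, and 6 higher and 2 lower in DN2b, where 19.9% and 22.5% were.

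The genes whose profile was most like that of *Hoxa9*, by the root mean square difference of centred log2(CPM + 1) over the 10 libraries among 10478 candidates, were *Gm7694* (0.659), *Gcnt2* (0.711) and *Gramd3* (0.753). *Gcnt2*, a glycosyltransferase gene, measured 33.6 to 48.7 CPM in the control, 19.1 and 35.8 CPM in DN1, 1.18 and 0.743 CPM in DN2a, and 1.33 and 2.63 CPM in DN2b. Most like *Meis1* were *Lphn1* (0.420), *Rgs13* (0.427) and *Gna14* (0.427). *Rgs13*, a regulator of G protein signaling known from mast cells and B cells, measured 9.57 and 6.78 CPM in DN1 and at most 0.297 CPM in every other library.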

How the data were processed

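Reads were processed by the authors, who per the study's methods aligned 36 bases of the first read to mm10 with TopHat2 and counted genes with htseq-count (HTSeq 0.6.1p1 in the submitters' processing notes, intersection-strict mode). The deposited values are raw counts per gene symbol, and 5 summary lines per library (20.5% to 41.0% of the reads tallied) were left out of library sizes and tests. Multi-mapped reads (16.4% to 30.1%) belong to no gene. The annotation and strand setting are not given in the sources used here. Replicates are separate LSK isolates per the methods.

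The 12221 genes that reached 1 CPM, before TMM scaling, in 2 or more libraries were fitted in 4 groups with edgeR 4.0.16 (TMM, quasi-likelihood test, prior count 0.125, common dispersion 0.189) in R 4.3.3, and p-values were adjusted by Benjamini-Hochberg over all genes tested. An adjusted p under 0.05 was called. The SE is the log2FC divided by the square root of F. Per-kilobase levels use GENCODE vM21 exons. Scripts were tested on simulated data.

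The members, gene lists and tests were chosen with earlier results of these data known. All members were named, with the 3 genes most like *Hoxa9* and *Meis1* (at least 5 CPM in the highest group) and, per list, genes of smallest adjusted p. *Hoxb4*, *Meis2*, *Mecom*, *Cdh5* and *Flt3* were described after their values were seen, and some listed genes are not reported here. The DN2a and DN2b labels share dates, and their replicate differences correlated across 12221 genes (r = 0.451, as against 0.0629 and 0.190 with DN1). Alternatives were DESeq2 1.42.0, other scaling, filters, prior count and sample sets, a year block and each library left out. Python 3.11.15 (pandas 2.3.3, matplotlib 3.10.9) made summaries and figures.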

Additional observations from a re-analysis of the deposited data

Results flagged for a closer look

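*Hoxa6* in control library R2 measured 0.305 CPM (10 counts), farther from the other control libraries than Dixon's limit for 4 values allows. Such a check was made for 52 genes and flags about 1 group in 20 by chance, and the other control libraries held 1 to 3 counts.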

How the results depend on the processing

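The count of members called in DN1 over the control was 1 in every setting run. In DN2a over the control (1 member) it was 3 with DESeq2, 2 with only these groups fitted and 1 to 2 with 1 library left out (2 without control library D1). In DN2b over the control (2 members) it was 1 with only these groups, with control libraries D1 and D2 only and with R1 and R2 only, and 0 to 2 with 1 library left out (0 without DN2b replicate 1). In DN2a and in DN2b over DN1 (1 member each) it was 2 with DESeq2, 0 with only these groups, 0 with the DN libraries only, a setting added after the data were seen, and 0 to 1 with 1 library left out. With the year as a replicate block it was 0 in both, and 0 as well in DN2b over DN2a. The block raised the calls over all genes from 32 to 58 in DN2a over DN1 and from 187 to 233 in DN2b over DN1 in the same 6 libraries. *Meis1* then had an adjusted p of 0.135 and 0.111, against 0.106 and 0.0876 without it. In the labels DN1 and DN2 libraries share only a year, while the study's methods describe the DN stages as isolated from each LSK replicate. In these 6 libraries the block changed no call of a member.

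Some log2FC values that passed no test changed sign when 1 library was left out, and the cause was not tested. In DN1 over the control the ranges were -1.06 to 1.55 (*Hoxa5*) and -1.09 to 1.80 (*Hoxa7*). For *Meis1* they were -0.48 to 0.20 in DN2a and -0.037 to 1.20 in DN2b over the control. *Hoxa3* in DN2b over the control ran from -2.29 to 1.04 and was -0.11 with control libraries R1 and R2 only. In DN2b over DN2a the ranges were -0.26 to 3.25 (*Hoxa3*), -1.07 to 2.92 (*Hoxa5*), -4.65 to 2.47 (*Hoxa7*), -3.46 to 5.43 (*Hoxa9*) and -4.38 to 2.90 (*Hoxa10*). Library size as the only scale moved the median of all genes by 0.26 in DN1 over the control and by -0.20 and -0.19 in DN2a and DN2b over DN1, and the members called stayed those of the main scale. The HoxA members other than *Hoxa7* had 0 to 9 counts per library in DN2a and DN2b. With 1 library left out of a pair, the remaining one was assumed to vary like the other groups.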

Other observations

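The regulators that act on Hox genes were measured as well. The MLL complex, which methylates histone H3 at Hox promoters, keeps Hox genes active, and CDX proteins switch them on in the embryo. Of 17 such genes in the files 14 were tested, and *Cdx1*, *Cdx2* and *Cdx4* were at the floor in every library. In DN1 over the control 3 were higher and 1 lower (14.3% and 17.0% of all genes). *Mllt3*, a subunit of the super elongation complex, was higher in DN1 (log2FC 1.60, SE 0.44, adjusted p = 0.0224), DN2a (1.72, SE 0.44, 0.0112) and DN2b (2.24, SE 0.44, 0.00375; edgeR's quasi-likelihood test). *Aff1*, of the same complex, was lower in the 3 stages (-1.49, -1.70 and -1.40). None of the 14 was called between DN stages by that test. *Kmt2a*, which encodes MLL itself, ranged from 5.81 to 34.7 CPM in the control and from 8.92 to 30.8 CPM in DN1, and was not called.

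*Mira*, a long noncoding RNA of the HoxA locus that lies (RefSeq, GRCm38.p6, chr6:52214491-52215288) inside the *Hoxa7* gene model (chr6:52214491-52221854), had 60, 142, 247 and 225 counts in control libraries D1, D2, R1 and R2, 147 and 292 in DN1 replicates 1 and 2, 1 and 39 in DN2a, and 5 and 18 in DN2b. *Hoxa7* had 52, 119, 168 and 198, 61 and 339, 4 and 48, and 1 and 20 counts in the same libraries. Where reads overlap both, the counts of the pair cannot be told apart.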
